A study of Homo sapiens with 18 samples.

Results

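The APOBEC3 cytidine deaminases are a human gene family of 7 members, APOBEC3A, APOBEC3B, APOBEC3C, APOBEC3D, APOBEC3F, APOBEC3G and APOBEC3H, and they were chosen here by gene symbol alone. Of the 25296 rows in the authors' count table, 6 carried a member's symbol. No row carried the symbol APOBEC3A, which was not analysed here. The cells were U2OS, a human osteosarcoma line, kept as 3 derived lines: 1 with the empty retroviral vector MigR1 (EV), 1 overexpressing wild-type DNMT3A (WT) and 1 overexpressing a mutant form (MUT). The DNMT3A protein methylates cytosine in DNA. For the mutation, the series text gives R882C and the sample labels give R882H, so the third line is called mutant throughout.

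Every line was profiled by RNA sequencing without drug and after 10 µM cytarabine for 24 h; the drug is a nucleoside analogue that cells incorporate into DNA, where it stalls replication. Each of the 6 groups held 3 libraries, made from cultures that the labels call biological triplicates, 18 libraries in all. The drug-free cells are untreated in the sample labels and vehicle-treated in the series text. Each construct was represented by a single line, so a difference between lines cannot be told apart from a difference between those lines that does not come from the construct, and p-values measure the spread between cultures of a line.

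APOBEC3 enzymes remove an amino group from cytosine in single-stranded DNA and leave uracil. They restrict retroviruses and mobile elements, and interferon induces several of them in blood and epithelial cells. APOBEC3A and APOBEC3B are also known as sources of clustered and dispersed cytosine mutations in tumours. The uracil they leave is normally cut out by uracil-DNA glycosylase, encoded by UNG, and the abasic site is then repaired.

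The genes form a tandem cluster on the plus strand of chromosome 22. In the authors' table, whose build the submitters' processing notes give as hg38, APOBEC3B spanned 38982347 to 38992805, APOBEC3C 39014083 to 39020353, APOBEC3D 39021113 to 39033277, APOBEC3F 39040604 to 39053911, APOBEC3G 39077005 to 39087744 and APOBEC3H 39097224 to 39104068. All 6 were annotated as protein-coding. The family arose by duplication and its members resemble each other in sequence, so reads from one copy can be shared out to another; how the authors' counting handled such reads is not given in the sources used here.

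Library totals ran from 15.4 to 21.9 M estimated counts. DNMT3A, the gene overexpressed, ran from 26.2 to 27.5 CPM (counts-per-million) in untreated EV, from 129 to 139 in untreated WT and from 253 to 615 in untreated MUT. It was thus higher in both overexpressing lines than in EV, as labelled, while the untreated MUT cultures differed widely. MUT also stood above WT, so an effect of the mutation cannot be told apart from one of the DNMT3A level. Of 9 fixed bone-lineage markers, 8 were in the table, and their summed level was lower after cytarabine in each line: 3120 to 3239 CPM untreated and 2269 to 2359 treated in EV, 3364 to 3374 and 2295 to 2376 in WT, and 3329 to 3914 and 2418 to 2722 in MUT. VIM (967 to 2600 CPM) and SPARC (804 to 1170 CPM) were the largest parts of that sum. Taken singly, 3, 3 and 4 of the 8 genes were called higher by edgeR in EV, WT and MUT, and 1 lower in each. Their median log2 fold changes were 0.11, 0.16 and 0.26. Beside them, 26.1%, 26.3% and 30.4% of all tested genes rose and 22.9%, 22.7% and 25.9% fell. The part of these marker changes in the results that follow was not tested. Of 10 blood-cell markers, which were fixed because blood cells express APOBEC3 genes highly, 6 were in the table, and their sum ran from 1.08 to 2.74 CPM. No library had more than 26 counts of PTPRC, the pan-leukocyte gene, or more than 33 of ITGAM, the highest count among these markers. The blood-marker sum overlapped between untreated and treated libraries in EV (1.93 to 2.64 against 1.75 to 2.74), WT (1.27 to 1.48 against 1.21 to 1.62) and MUT (1.08 to 2.66 against 2.33 to 2.66).

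Untreated U2OS cells contained mainly APOBEC3B and APOBEC3C transcripts, and cytarabine raised both in every line. Divided by exon length (the merged exons of the GENCODE v44 annotation), APOBEC3B made up 46.0% ± 0.503 (SD, n = 3) of the family's summed level in untreated EV cells and APOBEC3C 51.2% ± 0.519. In untreated WT the shares were 46.6% ± 0.205 and 49.7% ± 0.646, and in untreated MUT 54.0% ± 5.56 and 43.2% ± 5.49. The 4 other genes together supplied the small remainder in each library.

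The summed level rose in every line. In EV it was 43.7 ± 0.877 CPM per kb untreated and 82.9 ± 8.65 after cytarabine, 1.90 times as high. In WT it was 35.8 ± 1.29 and 90.4 ± 2.65, a ratio of 2.52. In MUT it was 40.7 ± 1.46 and 75.5 ± 1.22, a ratio of 1.86. No treated library reached down to the untreated range of its line: the lowest treated sum was 73.6 (EV replicate 1) and the highest untreated sum 44.7 (EV replicate 2). No test was made on this sum, which is a description of chosen genes.

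**Figure D1:**
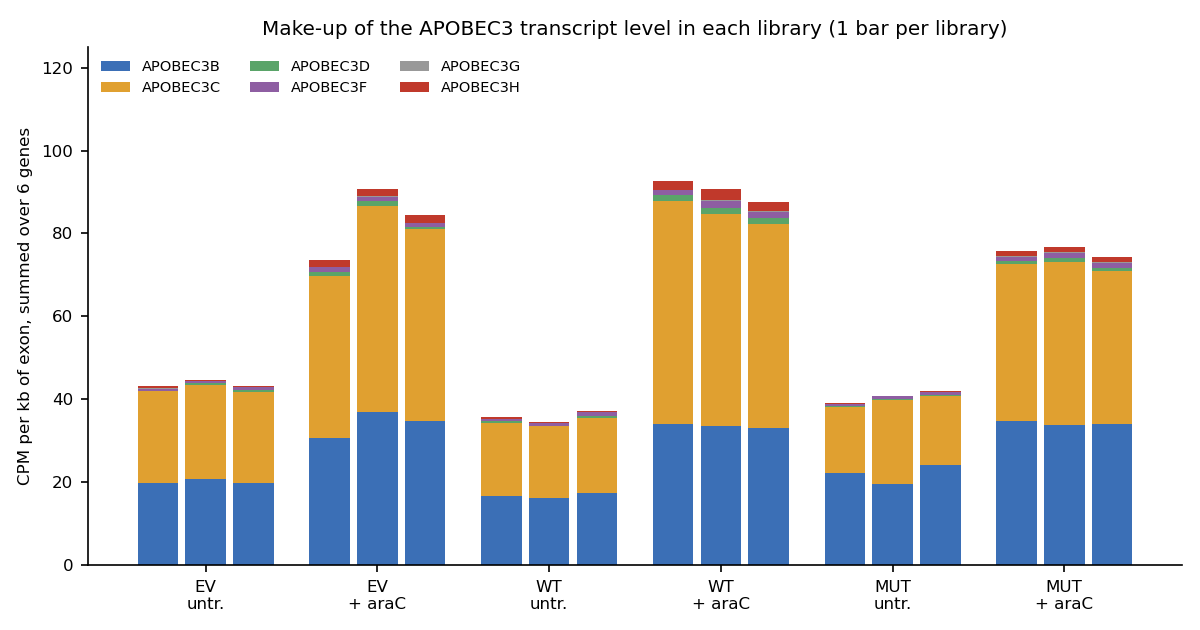
Summed APOBEC3 transcript level in each of the 18 libraries, in CPM per kb of exon, with each gene's part stacked; bars stand in sets of 3 libraries per group, untr. is untreated and araC is cytarabine. APOBEC3B and APOBEC3C fill nearly the whole of every bar, and all treated bars (73.6 and above) exceed all untreated bars (44.7 and below).

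APOBEC3B encodes a nuclear enzyme with a pair of deaminase-type domains. Its level was 37.3, 39.5 and 37.6 CPM in the 3 untreated EV libraries and 58.0, 69.9 and 66.0 after cytarabine. In WT it was 31.4, 30.7 and 32.9 untreated and 64.7, 63.7 and 62.9 treated. The MUT libraries were at 42.2, 36.9 and 45.8 untreated and 66.1, 63.9 and 64.3 treated. Every treated library lay above every untreated library. The 9 treated libraries of the 3 lines ran from 58.0 to 69.9 CPM and the untreated ones from 30.7 to 45.8. The log2 fold change by edgeR's quasi-likelihood test was 0.76 (SE 0.078, Benjamini-Hochberg adjusted p = 1.69e-07) in EV, 1.01 (SE 0.078, adjusted p = 5.13e-09) in WT and 0.64 (SE 0.077, adjusted p = 9.45e-07) in MUT.

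APOBEC3C encodes an enzyme with a single deaminase domain. In EV it was at 59.1, 60.1 and 58.2 CPM untreated and at 103, 131 and 122 after cytarabine. In WT it was at 47.0, 45.9 and 48.1 untreated and at 142, 135 and 129.9 treated. The MUT libraries were at 41.9, 53.5 and 43.9 untreated and at 99.9, 104 and 98.1 treated. Treated and untreated libraries did not overlap in any line; the treated WT libraries were above all treated MUT libraries and overlapped treated EV. The log2 fold change was 1.01 (SE 0.088, edgeR adjusted p = 2.49e-08) in EV, 1.53 (SE 0.089, adjusted p = 1.44e-10) in WT and 1.12 (SE 0.089, adjusted p = 4.48e-09) in MUT.

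Because APOBEC3C rose more than APOBEC3B, the balance of the pair shifted. The ratio of APOBEC3B to APOBEC3C per kb was 0.880 to 0.915 in untreated EV libraries and 0.743 to 0.782 in treated ones. In WT it went from between 0.930 and 0.953 to between 0.636 and 0.675. In MUT the untreated ratios were 1.40, 0.961 and 1.45, and the treated ones 0.923, 0.853 and 0.915. The ratio was lower in treated libraries of each line without overlap; the untreated MUT replicates 1 and 3 stood above all 16 other libraries.

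**Figure D2:**
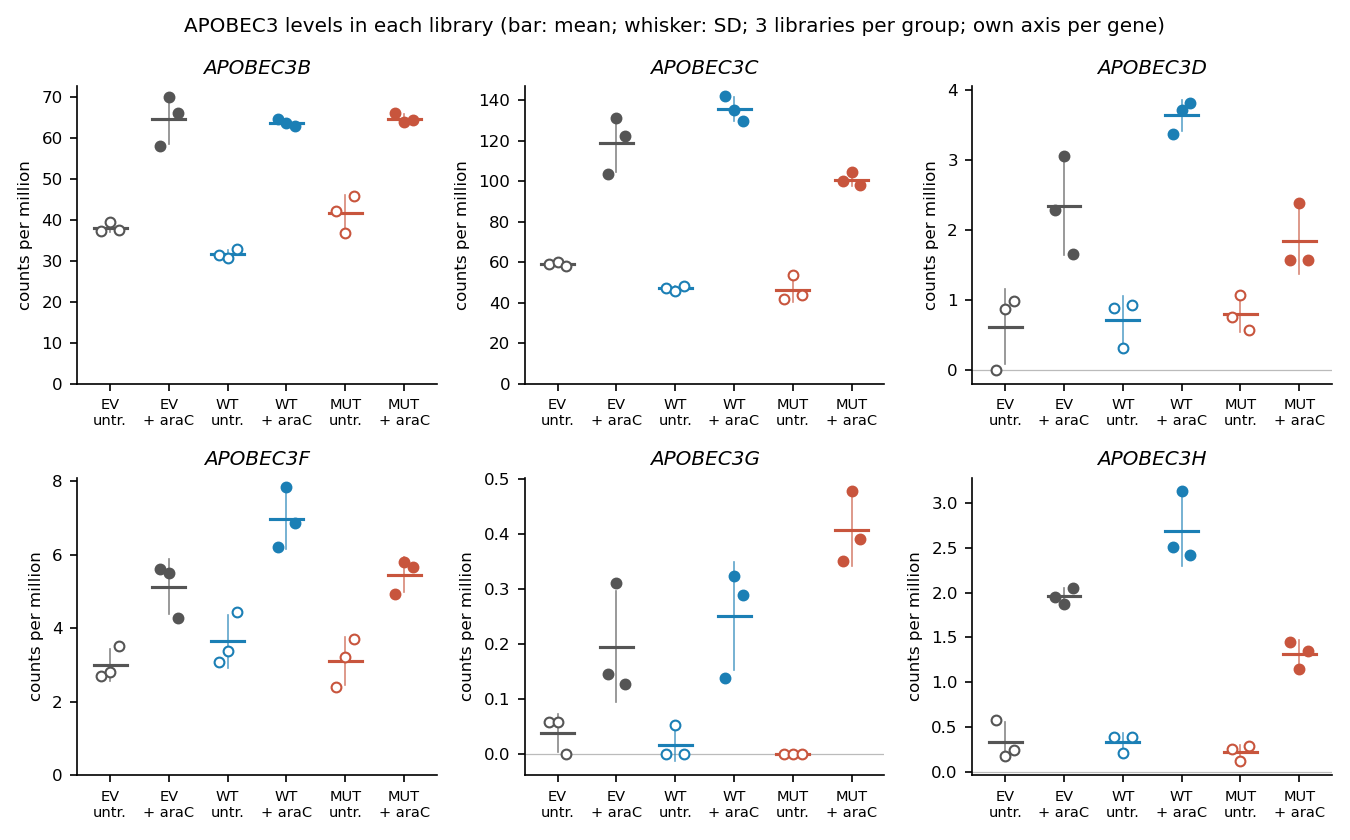
Level of each APOBEC3 gene with a row in the table, in CPM, by library: open points untreated, filled points 24 h with 10 µM cytarabine (araC), horizontal bars the group means and thin lines the SD of 3 libraries; each gene has its own axis. Treated libraries lie above the untreated libraries of the same line for all 6 genes, from about 30 to 142 CPM for APOBEC3B and APOBEC3C down to under 0.5 CPM for APOBEC3G.

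APOBEC3D, APOBEC3F, APOBEC3G and APOBEC3H encode enzymes best known for limiting HIV-1 when it lacks its Vif protein; the first 3 have a pair of deaminase-type domains and APOBEC3H has a single one. All were scarce in these cells. The highest level in any untreated library was 4.45 CPM for APOBEC3F, 1.07 CPM for APOBEC3D, 0.584 CPM for APOBEC3H and 0.0584 CPM for APOBEC3G.

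APOBEC3F was at 2.69, 2.80 and 3.50 CPM in untreated EV and at 5.62, 5.49 and 4.27 after cytarabine. In WT it was at 3.09, 3.38 and 4.45 untreated and at 6.21, 7.83 and 6.86 treated. The MUT libraries were at 2.41, 3.21 and 3.71 untreated and at 4.92, 5.79 and 5.66 treated. The groups did not overlap within a line, although the highest untreated WT library exceeded the lowest treated EV library. The log2 fold change was 0.77 (SE 0.19, edgeR adjusted p = 0.00275) in EV, 0.94 (SE 0.19, adjusted p = 3.37e-04) in WT and 0.82 (SE 0.19, adjusted p = 0.00124) in MUT.

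APOBEC3H was near the limit of detection without drug and clearly present with it. Untreated libraries held 10, 3 and 4 counts in EV, 8, 4 and 7 in WT and 5, 2 and 5 in MUT. After cytarabine they held 40, 30 and 48 counts in EV, 54, 58 and 50 in WT and 33, 24 and 31 in MUT. In CPM the treated ranges were 1.87 to 2.05 in EV, 2.42 to 3.13 in WT and 1.15 to 1.45 in MUT, all above every untreated range. The log2 fold change was 2.52 (SE 0.37) in EV, 3.00 (SE 0.36) in WT and 2.52 (SE 0.40) in MUT, with edgeR adjusted p of 1.36e-05, 1.21e-06 and 2.39e-05. Without untreated EV replicate 1 the EV value was 3.19. APOBEC3H passed the filter on low counts only through its treated libraries, so a difference was built into its being tested.

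APOBEC3H was the only member with an entry in the RefSeq promoter table used (GRCh38.p14), and its upstream sequence is shown because this gene had the largest fitted log2 fold change of the tested members in every line. The 250 bases before the RefSeq start at 39097244, plus strand, chr22:39096994-39097243, read 5′ to 3′ as follows, with the first copy of a direct repeat in capitals; the authors' table places the gene's start at 39097224, inside the capitals.
APOBEC3H upstream: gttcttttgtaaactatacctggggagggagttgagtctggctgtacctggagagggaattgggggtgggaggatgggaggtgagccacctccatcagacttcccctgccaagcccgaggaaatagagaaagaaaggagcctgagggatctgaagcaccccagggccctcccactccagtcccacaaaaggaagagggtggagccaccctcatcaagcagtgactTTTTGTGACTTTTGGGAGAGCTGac

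The repeated unit was 23 bases long, from position -25 to -3 relative to the RefSeq start, and its second, identical copy ran from 2 to 24. Of 35116 promoter windows of 300 bases in the table, 460 (1.31%) held an exact direct repeat of at least that length. Motifs were chosen after the sequence had been seen and searched on both strands over all 300 bases. The interferon-regulatory-factor core AANNGAAA matched once, as AAGTGAAA beginning at position 29, and 22.8% of all windows held a match. The interferon-gamma-activated site TTCNNNGAA (7.66% of windows), the AP-1 site TGAGTCA (4.95%), the cell-cycle element TTTGAA (15.2%), the E2F site TTTCCCGC (1.63%) and the TATA box TATAAA (11.5%) had no match in this window.

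APOBEC3G was too scarce for the test across genes. It had 1, 1 and 0 counts in untreated EV, 0, 1 and 0 in untreated WT and 0, 0 and 0 in untreated MUT. After cytarabine it had 3, 5 and 3 counts in EV, 3, 6 and 6 in WT and 8, 10 and 9 in MUT. Each treated library thus held more counts than any untreated library. The ratio of summed counts, scaled to library size, was 4.64 in EV (exact 95% interval 1.01 to 43.1, counting error only) and 14.2 in WT (2.18 to 597). In MUT it was at least 7.21-fold higher, taking 3 counts over the untreated group as the floor.

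APOBEC3D overlaps a second row of the table. AL022318.4, tagged in GENCODE v44 as a readthrough gene on the same strand, spans 39014363 to 39033277 and so covers APOBEC3D whole and most of APOBEC3C. In untreated EV replicate 1 the authors' estimate gave 0.117 counts to APOBEC3D and 19.883 to AL022318.4, which sum to 20. The estimates of these rows summed to a whole number (within 0.005) in 18 of 18 libraries, while APOBEC3D alone was whole in 4. The reads of the locus had been divided between both rows, and the division differed from library to library: in treated EV replicate 2 APOBEC3D had 48.94 and AL022318.4 0.06, and in treated EV replicate 3 they had 39.031 and 33.969.

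**Figure D3:**
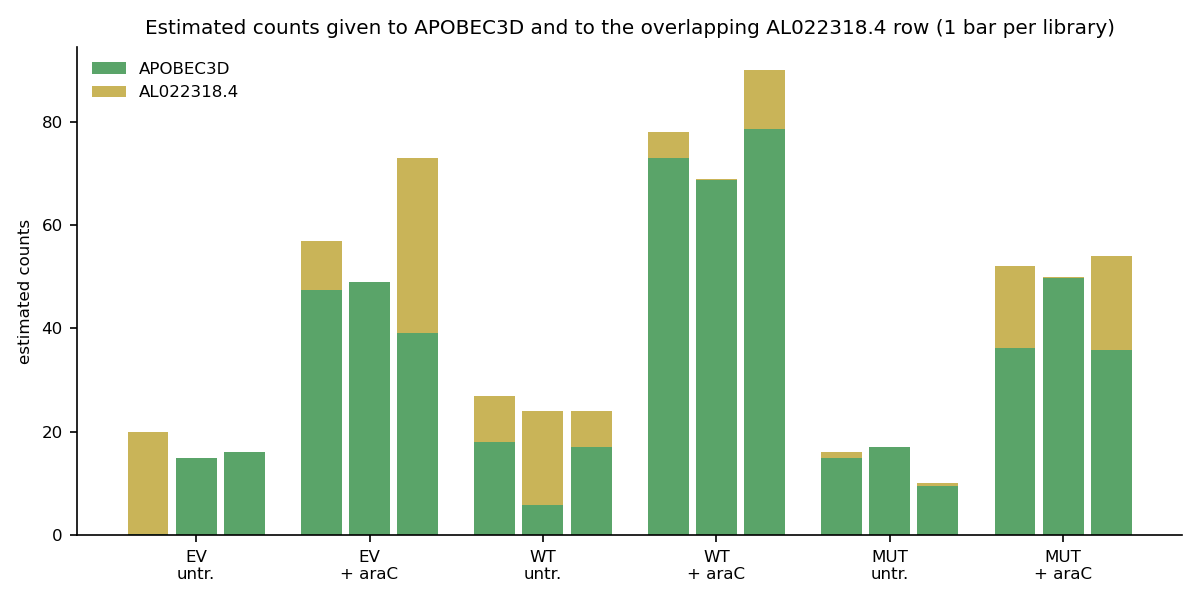
Estimated counts assigned by the authors to APOBEC3D (green) and to the overlapping readthrough row AL022318.4 (yellow) in each library, stacked; bars stand in sets of 3 libraries per group, araC is cytarabine. The height of a bar is a whole number in all 18 libraries, while its division between the rows varies, up to 0.117 against 19.883 in the first untreated EV library.

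Rounded to whole counts as for the test, APOBEC3D was at 0.00, 0.876 and 0.983 CPM in untreated EV and at 2.30, 3.06 and 1.67 after cytarabine. In WT it was at 0.882, 0.317 and 0.934 untreated and at 3.38, 3.73 and 3.82 treated. In MUT it was at 0.752, 1.07 and 0.571 untreated and at 1.58, 2.39 and 1.57 treated. Its log2 fold change was 1.90 (SE 0.54, edgeR adjusted p = 0.00626) in EV, 2.34 (SE 0.51, adjusted p = 7.42e-04) in WT and 1.21 (SE 0.52, adjusted p = 0.0531) in MUT, the last short of the threshold of 0.05. Without untreated EV replicate 1 the EV value was 1.31. DESeq2 called APOBEC3D in MUT as well (adjusted p = 0.0248).

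Added together, APOBEC3D and AL022318.4 gave estimates with smaller standard errors. Their sum was 1.17, 0.876 and 0.983 CPM in untreated EV and 2.79, 3.06 and 3.12 treated. In WT it was 1.32, 1.27 and 1.32 untreated and 3.62, 3.73 and 4.35 treated. In MUT it was 0.802, 1.07 and 0.571 untreated and 2.28, 2.39 and 2.35 treated. In this fit, added after the data had been seen, the log2 fold change was 1.56 (SE 0.22, edgeR adjusted p = 1.05e-05) in EV, 1.57 (SE 0.21, adjusted p = 4.85e-06) in WT and 1.53 (SE 0.23, adjusted p = 1.42e-05) in MUT. The standard errors were under 0.24 in place of over 0.50, and the MUT value passed the threshold.

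Set against all tested genes, the number of members that rose was as follows. In EV, APOBEC3B, APOBEC3C, APOBEC3D and APOBEC3F passed the test upward, 4 of the 4 members that would have been tested on their untreated libraries alone, beside 26.1% of all 18226 tested genes. In WT these 4 passed as well, beside 26.3%. In MUT APOBEC3B, APOBEC3C and APOBEC3F passed and APOBEC3D as deposited did not, beside 30.4%. Treated libraries lay above untreated ones without overlap for each of these members in every line, which held for 30.6%, 33.5% and 32.1% of tested genes in EV, WT and MUT. No member fell by edgeR, 0 also at an unadjusted p under 0.05 and by DESeq2, beside 22.9%, 22.7% and 25.9% of tested genes that did. The median log2 fold change of all tested genes was 0.05, 0.03 and 0.05.

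Tested against a minimum log2 change of 1 instead of 0, calls held for APOBEC3C and APOBEC3D in WT. They also held for APOBEC3H in each line, but that gene was tested only through its treated libraries. Of all 18226 tested genes, 666 in EV, 689 in WT and 924 in MUT were called at this minimum in either direction. The APOBEC3D call rests on the row as deposited (log2 fold change 2.34). With the readthrough row added the value was 1.57, and that sum was not tested against this minimum. A culture is measured as bulk RNA, so more transcript per cell and more cells that express the gene cannot be told apart.

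**Figure D4:**
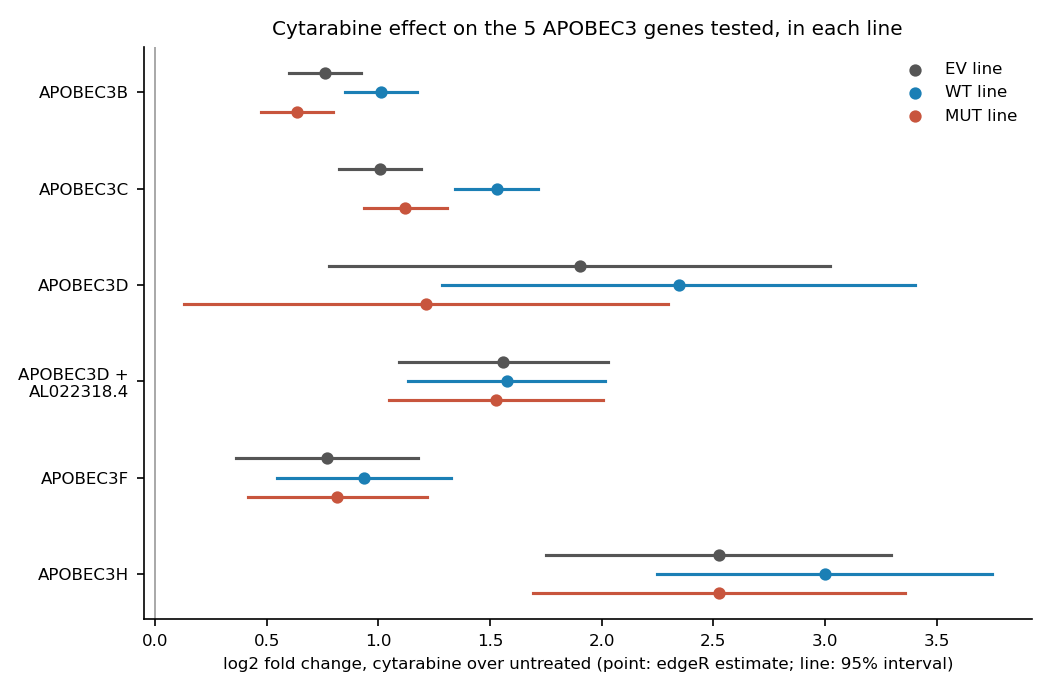
Cytarabine effect on the tested members in each line, as log2 fold change of treated over untreated cells; points are edgeR estimates and lines their 95% intervals, from 3 libraries per group. All estimates are above 0; the 3 estimates of APOBEC3D run from 1.21 to 2.34 as deposited and from 1.53 to 1.57 with the readthrough row added.

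Whether the lines responded differently was tested as the difference of the effects. No member was called in any of the 3 comparisons, beside 0.214% of tested genes for MUT against EV, 0.285% when WT was set against EV and 1.00% for MUT against WT. At an unadjusted p under 0.05 there were 0, 2 and 2 members, APOBEC3B and APOBEC3C in both of the last comparisons; DESeq2 called 0, 1 and 2, APOBEC3C for WT against EV, then APOBEC3B with APOBEC3C for MUT against WT. These comparisons share libraries.

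The APOBEC3C effect was larger in WT than in EV by 0.52 on the log2 scale (95% interval 0.26 to 0.78, edgeR adjusted p = 0.0969) and smaller in MUT than in WT, with a difference of -0.41 (-0.67 to -0.15, adjusted p = 0.114). The APOBEC3B effect differed by -0.37 between MUT and WT (-0.60 to -0.15, adjusted p = 0.101) and by 0.25 between WT and EV (0.02 to 0.48, adjusted p = 0.466). Between MUT and EV the differences were -0.12 for APOBEC3B (-0.35 to 0.10) and 0.11 for APOBEC3C (-0.15 to 0.37). For APOBEC3H the interval was wide, from -0.66 to 1.60 when WT was set against EV and from -1.70 to 0.75 when MUT was set against WT. For APOBEC3F it ran from -0.40 to 0.73 and from -0.68 to 0.44 in the same order.

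For 3 of these differences leaving out 1 library brought a call. APOBEC3C for WT against EV reached an edgeR adjusted p of 0.0434 without treated EV replicate 2, and of 0.0176 and 0.0382 without untreated MUT replicates 2 and 3, which belong to neither line compared. For MUT against WT, APOBEC3B reached adjusted p of 0.0380 and 0.0130 without untreated MUT replicates 1 and 2, and APOBEC3C 0.0146 and 0.0489 without untreated MUT replicates 1 and 3. Over all 18 libraries left out in turn, adjusted p ran from 0.0176 to 0.259 for the first, from 0.0130 to 0.196 for the second and from 0.0146 to 0.220 for the last.

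Without drug, the lines differed in APOBEC3B and APOBEC3C. In WT against EV, 2 of the 5 tested members were lower, beside 7.36% of tested genes: APOBEC3B by a log2 fold change of -0.27 (SE 0.080, edgeR adjusted p = 0.0319) and APOBEC3C of -0.33 (SE 0.089, adjusted p = 0.0193). The WT and EV libraries did not overlap for either gene, but the share of all tested genes without such overlap was not counted. In MUT against EV only APOBEC3C was called, lower by -0.35 (SE 0.090, edgeR adjusted p = 0.00956), beside 10.0% of tested genes. In MUT against WT only APOBEC3B was called, higher by 0.40 (SE 0.079, edgeR adjusted p = 0.00139), beside 11.7%. The first 2 comparisons share the EV libraries.

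Among the untreated groups, the MUT cultures varied most in APOBEC3B and APOBEC3C. Replicate 2 had the lowest APOBEC3B (36.9 CPM), the highest APOBEC3C (53.5 CPM) and the highest DNMT3A (615 CPM) of the 3, while the lowest DNMT3A (253 CPM) was in replicate 3. Without replicate 2, APOBEC3B in untreated MUT stood 0.51 above WT (edgeR adjusted p = 6.94e-05) and 0.23 above EV (adjusted p = 0.0272, a call not made with it). Without replicate 1, APOBEC3C in MUT against EV was -0.24 (adjusted p = 0.0674) and no longer passed. The WT against EV calls were less firm: APOBEC3B lost its call when any one of the 6 libraries compared was left out (adjusted p up to 0.120), and APOBEC3C when any of 4 was (untreated EV replicates 1 and 2, untreated WT replicates 1 and 2; adjusted p up to 0.0677).

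With drug, no difference between lines in APOBEC3B was called. The log2 differences were 0.00 between MUT and EV, -0.02 between WT and EV and 0.02 between MUT and WT, with edgeR adjusted p of 0.988, 0.896 and 0.870. That the lines differed less with drug than without it was not established. In the same order, the differences of the APOBEC3B effects had edgeR adjusted p of 0.620, 0.466 and 0.101. In MUT against WT, APOBEC3C was lower by -0.43 (SE 0.085, edgeR adjusted p = 0.00135) and APOBEC3H by -1.02 (SE 0.30, adjusted p = 0.0206), 2 of 5 tested members beside 9.48% of tested genes. The APOBEC3H call was lost without treated WT replicate 2 (adjusted p = 0.0968) and without treated MUT replicates 2 (0.0754) or 3 (0.0573). APOBEC3D differed by -0.98 as deposited (SE 0.45, edgeR adjusted p = 0.140) and by -0.73 with the readthrough row added (SE 0.20, adjusted p = 0.0124); without drug the latter difference was -0.68 (SE 0.24, edgeR adjusted p = 0.0514).

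In treated MUT against treated EV no member was called, beside 14.0% of tested genes in either direction, with APOBEC3C at -0.24 (95% interval -0.42 to -0.06, edgeR adjusted p = 0.0720). APOBEC3C passed there without treated EV replicate 1 (log2 fold change -0.33, adjusted p = 0.0139) and without any one untreated MUT replicate (-0.25, adjusted p 0.0144 to 0.0369). In treated WT against treated EV none was called, beside 16.5%; APOBEC3C stood at 0.19 (0.01 to 0.37, adjusted p = 0.140) and APOBEC3F at 0.44 (0.07 to 0.82, adjusted p = 0.105). At an unadjusted p under 0.05 there was 1 member in the first comparison and 2 in the second, those named; DESeq2 called 0 in both.

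The order of the group means puts these values in 1 line. For APOBEC3B it was untreated WT (31.6 CPM), untreated EV (38.1), untreated MUT (41.6), treated WT (63.7), treated EV (64.7) and treated MUT (64.8); EV and MUT untreated overlapped, and so did the 3 treated groups. For APOBEC3C it was untreated MUT (46.5), untreated WT (47.0), untreated EV (59.1), treated MUT (101), treated EV (119) and treated WT (136); the first 2 groups overlapped, and treated EV overlapped both of its neighbours. For APOBEC3H the untreated groups (0.221 in MUT, 0.329 in WT, 0.335 in EV) overlapped and the treated groups (1.32 in MUT, 1.96 in EV, 2.68 in WT) did not. Of the treated APOBEC3H differences edgeR called only MUT against WT (adjusted p = 0.0206). It called neither MUT against EV (0.240) nor WT against EV (0.328). For APOBEC3F the untreated EV (3.00), MUT (3.11) and WT (3.64) groups overlapped, as did treated EV (5.13) and MUT (5.46), below treated WT (6.97). No difference between lines in APOBEC3F was called. How many of all tested genes were without overlap between lines was not counted.

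Genes on either side of the cluster did not share 1 response. Of the 5 nearest tested genes before it (SUN2, AL021707.6, DNAL4, NPTXR and CBX6), DNAL4 and NPTXR were called higher in EV, and NPTXR higher and SUN2 lower in both WT and MUT. NPTXR, a neuronal pentraxin receptor, rose in each line (log2 fold change 1.54, 1.39 and 1.59 in EV, WT and MUT), and SUN2, a nuclear envelope protein, fell in WT and MUT (-0.59 and -0.51) and stood at -0.16 in EV (edgeR adjusted p = 0.0701). Of the 5 nearest after it (CBX7, AL031846.2, PDGFB, RPL3 and SYNGR1), 2, 4 and 3 rose and 1 fell in each line. Beside these counts, 26.1%, 26.3% and 30.4% of all tested genes rose and 22.9%, 22.7% and 25.9% fell. The median log2 fold change of the 5 genes after the cluster was 0.47, 0.72 and 0.81. That of the 5 genes before it was 0.31, 0.16 and 0.03, and that of all tested genes 0.05, 0.03 and 0.05. CBX7, a Polycomb protein, rose by 0.47, 0.72 and 0.81, SYNGR1, a synaptic vesicle protein, by 1.19, 1.22 and 1.43, and the ribosomal protein gene RPL3 was lower, at -0.27, -0.44 and -0.44.

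**Figure D5:**
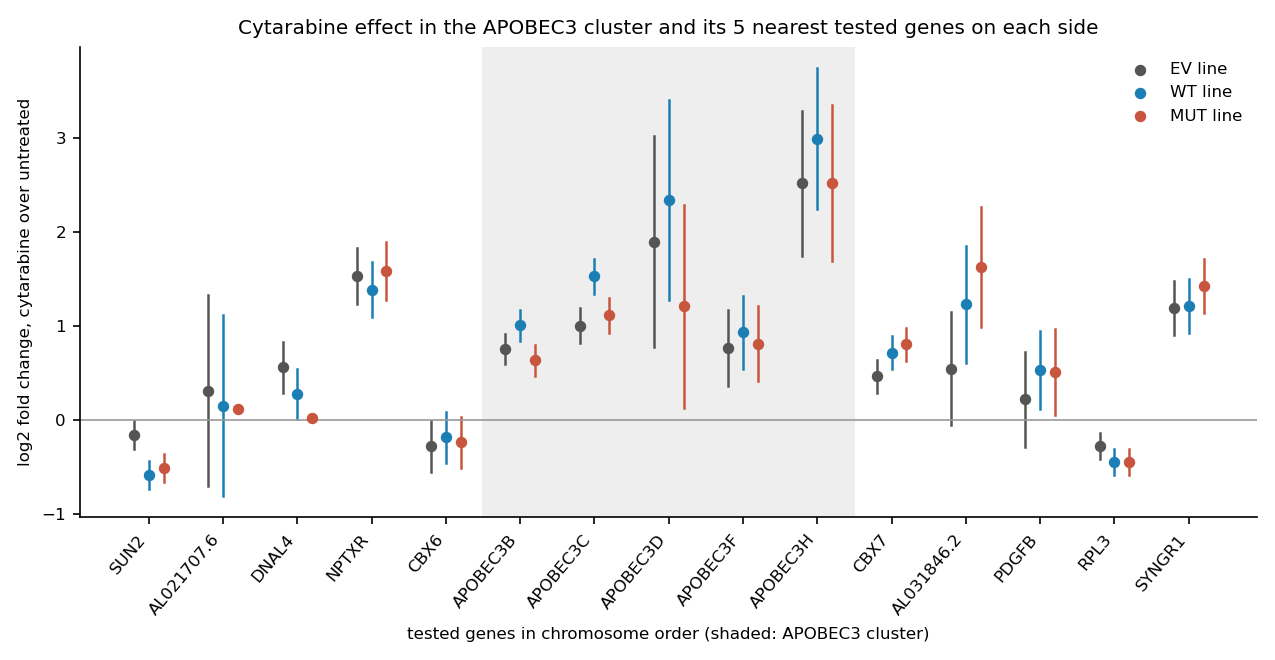
Cytarabine effect in each line, as log2 fold change of treated over untreated cells with its 95% interval, for the tested genes of the APOBEC3 cluster (shaded) and the 5 nearest tested genes on each side, in chromosome order without distances; AL022318.4 is left out, and estimates too near 0 for an interval are points alone. The shaded genes shown are all above 0, while SUN2, CBX6 and RPL3 lie below 0 in all 3 lines beside risers such as NPTXR and SYNGR1. CBX6 was called in no line. AL022318.4 stood at 0.78 in EV, -1.17 in WT and 4.34 in MUT and was called in no line.

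Among the 13678 tested genes whose log2 CPM averaged at least 1, the patterns most like each member's were found by the root mean square difference of centred log2 CPM over the 18 libraries. For APOBEC3B these were CD47, a cell-surface signal against engulfment, at 0.104, TBC1D2 at 0.105 and GPR3 at 0.108, where APOBEC3B's own spread was 0.424. For APOBEC3C they were S1PR3, a sphingosine-1-phosphate receptor, at 0.141, FAM214A at 0.146 and PARD6G at 0.152, against a spread of 0.638. For APOBEC3F they were MOAP1 (0.163) and GSDME (0.188), against 0.479. For APOBEC3H they were AREG, which encodes the growth factor amphiregulin (0.368), GREB1 (0.385) and PIFO (0.387), against 1.28. For APOBEC3D as deposited they were RAB9B (0.652), STYK1 (0.674) and TSPAN1 (0.702), against 1.26. Between members, the smallest differences were 0.306 between APOBEC3B and APOBEC3F and 0.309 between APOBEC3B and APOBEC3C.

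Of the genes listed for preventing or repairing uracil in DNA, none was called higher by edgeR. The share of all tested genes that rose was 26.1% in EV, 26.3% in WT and 30.4% in MUT. Of 14 uracil excision and abasic-site repair genes, all tested, 0 rose and 5 fell in each line, beside 22.9%, 22.7% and 25.9% of all tested genes that fell in EV, WT and MUT, with median log2 fold changes of -0.10, 0.01 and -0.12 beside 0.05, 0.03 and 0.05 for all tested genes. Upward, an unadjusted p under 0.05 was reached by 0, 1 and 0 of them, and DESeq2 called 0, 0 and 0. UNG, the main nuclear uracil-DNA glycosylase, averaged 115 CPM untreated and 48.6 treated in EV, 119 and 66.3 in WT, and 116 and 59.7 in MUT, with log2 fold changes of -1.25, -0.84 and -0.95. APEX1, the abasic endonuclease, changed by -0.88, -0.75 and -0.89, the ligase gene LIG3 by -0.64, -0.89 and -0.74, and DUT, whose enzyme keeps dUTP low, by -0.65, -0.47 and -0.47, all called lower by edgeR.

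Most tested interferon-stimulated restriction factors outside the family also rose. Of 21 listed, 18 were tested, and 14 rose in EV, 14 in WT and 13 in MUT by edgeR while 0 fell, also at an unadjusted p under 0.05 and by DESeq2, with medians of 0.75, 0.95 and 0.82. Of all tested genes 26.1%, 26.3% and 30.4% rose. Several of these factors are scarce and, like APOBEC3H, could pass the low-count filter through treated libraries. For such factors a rise was built into their being tested, and the counts above include them. OAS1, a sensor of double-stranded RNA, averaged 0.924 CPM untreated and 4.49 treated in EV, 0.796 and 5.57 in WT, and 1.11 and 3.98 in MUT. BST2, which tethers budding virus, went from 0.634 to 5.30, from 0.334 to 1.69 and from 0.745 to 4.54 CPM, OASL from 0.630 to 2.43, from 0.723 to 2.71 and from 0.359 to 1.94, and IFITM1, which was barely detected, from 0.0993 to 0.372, from 0.0183 to 0.419 and from 0.0334 to 0.721. Of 14 interferon signalling factors tested, 2 rose and 2 fell in EV, 4 and 0 in WT, and 2 and 1 in MUT, beside 26.1%, 26.3% and 30.4% of all tested genes that rose and 22.9%, 22.7% and 25.9% that fell, with medians of 0.03, 0.10 and 0.13. In WT, 1 was lower at an unadjusted p under 0.05 and DESeq2 called 0 lower. STAT2 rose in each line (log2 fold change 0.97, 0.84 and 0.97), as did the receptor gene IFNAR2 (0.46, 0.68 and 0.52).

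NF-kB genes mostly fell. Of 10, all tested, 9 fell in EV, 8 in WT and 9 in MUT, and 0, 0 and 1 rose, counts that were the same at an unadjusted p under 0.05 and by DESeq2, with medians of -0.59, -0.48 and -0.65, beside 22.9%, 22.7% and 25.9% of all tested genes that fell. The subunit gene NFKB1 changed by -1.05, -0.81 and -0.99, RELB by -1.11, -0.88 and -1.35, and the inhibitor genes NFKBIA by -1.10, -1.12 and -1.27 and NFKBIE by -0.57, -0.49 and -1.05. The DREAM and E2F genes, a repressor complex and its partners known to act on APOBEC3B, were mixed: of 17, all tested, 2 rose and 6 fell in EV, 2 and 4 in WT, and 5 and 3 in MUT, with medians of -0.12, -0.05 and -0.05, beside 26.1%, 26.3% and 30.4% of all tested genes that rose and 22.9%, 22.7% and 25.9% that fell. E2F4 fell (-0.99, -0.92 and -0.86), and TFDP2 (0.40, 0.61 and 0.56) and RB1 (0.27, 0.36 and 0.52) rose.

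Among other deaminases 8 were tested. By edgeR, 4 rose and 3 fell in EV, 2 and 2 in WT, and 3 and 2 in MUT, with medians of 0.19, 0.01 and 0.12. Beside them, 26.1%, 26.3% and 30.4% of all tested genes rose and 22.9%, 22.7% and 25.9% fell. In WT and MUT the counts were near those shares. CDA, which deaminates free cytidine and also cytarabine, rose by 0.87, 1.56 and 0.90, ADA by 1.01, 0.88 and 0.68, and DCTD, the dCMP deaminase, changed by -0.56, -0.44 and -0.65.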

How the data were processed

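RNA of 18 U2OS libraries (6 groups of 3, from the sample titles) was analysed. Per the submitters' processing notes, CASAVA, STAR 2.6.1d and hg38 were used; the counting tool and its use of strand are not given in the sources used here. The authors deposited estimated counts per gene (70.9% whole, no row summing to under 10), not normalized, and a second table of normalized signal, which the deposited values show to be 1 plus a library factor times the estimated count and which served only for those factors.

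After rounding, the estimated counts were fitted with edgeR 4.0.16 (R 4.3.3): filterByExpr (18226 genes tested), TMM scaling, 1 coefficient per group, quasi-likelihood test, Benjamini-Hochberg adjustment over all tested genes, threshold 0.05. The script was tested on simulated data. SE is the log2 fold change over the square root of F and is left out where F is under 0.1; intervals are 95%. CPM use TMM-scaled totals and levels per kb the merged exons of GENCODE v44. Alternatives included DESeq2 1.42.0 and each library left out. No 2 replicates agreed within sampling noise (chi-square per degree of freedom 2.46 to 48.2).

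The members and all lists were chosen with earlier results of these data known. Named genes are all members, up to 4 per list with the largest mean cytarabine effect over the lines by size, 5 neighbours on each side and the 3 most similar patterns. Some genes of these lists and patterns are not reported here.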

Additional observations from a re-analysis of the deposited data

How the results depend on the processing

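No called value changed sign under any alternative run. The number of members called after cytarabine, 5 in EV, 5 in WT and 4 in MUT (APOBEC3H included, which was tested only through its treated libraries; beside 26.1%, 26.3% and 30.4% of all tested genes), was 1, 3 and 1 against a minimum log2 change of 1, and 3 in EV and 3 in WT with genes kept at a mean of at least 50 counts, which removes the scarce members from the test; with each library left out in turn it was 5 to 5, 5 to 5 and 4 to 5. Against the minimum log2 change of 1 no line comparison called a member: 0 in untreated MUT against EV (1 otherwise), WT against EV (2) and MUT against WT (1) and in treated MUT against WT (2). Fitted on only the groups compared, untreated MUT against EV and MUT against WT called 0, and the difference of effects between WT and EV called 1; without a low-count filter untreated WT against EV called 1. Treated MUT against EV called 1 in place of 0 with upper-quartile factors and with the mean of at least 50 counts, the latter also giving 1 for treated MUT against WT and 1 for the difference of effects between MUT and WT. DESeq2 called 1 for the difference between WT and EV and 2 for that between MUT and WT. The causes were not tested. Leaving out each library gave 0 to 0, 0 to 1 and 0 to 2 members for the 3 differences (MUT-EV, WT-EV, MUT-WT), 0 to 2, 0 to 2 and 1 to 1 for the untreated lines and 0 to 1, 0 to 0 and 1 to 3 for the treated lines in the same order.

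The summed level per group (untreated and treated EV, WT, MUT: 43.7, 82.9, 35.8, 90.4, 40.7 and 75.5) was 101, 193, 83.3, 213, 92.2 and 174.6 CPM without division by length. With the length of 1 canonical transcript, an alternative added after seeing the data, it moved to 47.6 in untreated EV, 39.1 and 97.2 in WT and 45.0 and 82.3 in MUT. With the authors' factors it moved to 44.7 in untreated EV, 87.6 in treated WT and 42.3 and 74.1 in MUT. Leaving out each library gave 43.2 to 43.9, 79.0 to 87.6, 35.1 to 36.4, 89.2 to 91.8, 40.0 to 41.5 and 75.0 to 76.2.

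The replicate numbers showed no clear pairing of the samples. Same-numbered libraries of different groups had correlations of their deviations from -0.26 to 0.43. The median was -0.018, beside 0.022 for libraries of different number. In 9 of 18 libraries the mean correlation was highest with their own number, out of 3 numbers. With the replicate block the cytarabine calls were 5, 5 and 4, and no call of a member changed in any comparison.

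Counts over all tested genes, used as the background, moved too. Against the minimum log2 change of 1, the cytarabine calls went from 8940, 8932 and 10257 to 666, 689 and 924. For the differences of effects (39, 52 and 183 calls for MUT-EV, WT-EV and MUT-WT), DESeq2 gave 487, 132 and 795, the fits on the groups compared gave 1, 274 and 39, and leaving out each library gave 8 to 935, 12 to 152 and 38 to 1235. On the groups compared, untreated line calls went from 3632, 2125 and 3872 to 845, 5073 and 1080, and treated MUT against WT from 3616 to 6082.

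Depth limits APOBEC3G, APOBEC3D and APOBEC3H, whose untreated libraries held 0 to 18 counts; no difference between lines in APOBEC3D or APOBEC3H was called without drug as deposited. Scaling moved the median log2 fold change of all tested genes by under 0.1: from 0.05, 0.03 and 0.05 to 0.13, 0.07 and 0.10 with upper-quartile factors and to -0.02, -0.04 and -0.03 with the authors' factors; no member changed direction.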
